A study of Mus musculus with 59 samples.

Results

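The sites described here are the peaks of CTCF in Thy1+ reprogramming cells with a control shRNA that overlapped no peak of any other control list. They were chosen by presence and absence of peaks: a peak of the Thy1+ control list counted when it shared not even 1 base with a peak of the day 0, SSEA1- Thy1-, SSEA1+ or day 12 Oct4-GFP+ control lists or the wild-type ESC list. Of the 52800 peaks of the Thy1+ control list, 1534 met this rule, a share of 2.91% (95% Wilson interval 2.77 to 3.05%). The other 51266 peaks of the list are the comparison used throughout, and all 16 lists together hold 798096 peaks.

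The series mapped binding of CTCF by ChIP-seq, sequencing of DNA pulled down with the protein, in OG2 mouse embryonic fibroblasts, which carry a green reporter of Oct4, during reprogramming by the OSKM factors (Oct4, Sox2, Klf4 and c-Myc) delivered by virus. It has 59 samples, 31 of them ChIP samples and 28 input samples, and 1 peak list for each of 16 groups. The groups of the lists are as follows. Day 0 cells, Thy1+ cells (days 3 and 9), SSEA1- Thy1- cells (days 6 and 9), SSEA1+ cells (days 6 and 9) and Oct4-GFP+ cells (day 12) each received an shRNA against Ctcf or, as control, one against luciferase. On day 10, reprogramming cells had OSKM, Ctcf and an shRNA against Smarca5, or OSKM and Ctcf, or OSKM alone. E14Tg2a embryonic stem cells (ESCs) were Smarca5 knockout or wild type, and SMARCA5 was mapped in ESCs of this line through an overexpressed protein with a Flag-biotin tag, from clones picked one by one. The knockout was made with a Cas9 nickase, and whether its list comes from 1 clone is not given in the sources used here.

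The labels of the day 3 Thy1+ samples disagree with each other. By title, the sample with the luciferase shRNA belongs to the control group, but its description names the Ctcf shRNA list, and the sample with the Ctcf shRNA in its title is described under the control list. The source name calls both samples control. The lists are used under the groups of the titles, so by the descriptions the Thy1+ control list holds the day 3 sample with the Ctcf shRNA, and the Thy1+ Ctcf shRNA list the day 3 control sample. No list of single samples was used here, and no result could be recomputed without these samples. The limit holds for the choice of the 1534 sites and so for every value below, comparisons of the Thy1+ lists included.

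CTCF is a zinc-finger protein that binds a long, partly degenerate DNA motif, halts the cohesin complex that extrudes chromatin loops, and so sets the borders of contacts between enhancers and promoters. Most CTCF sites are shared by many cell types, and the sites that differ are often those with weaker motifs or with DNA methylation that varies between tissues. Thy1 is a surface protein of fibroblasts that cells lose early in reprogramming, SSEA1 a carbohydrate antigen that they gain, and reactivation of Oct4 marks cells close to pluripotency. SMARCA5, also called SNF2H, is the ATPase of the ISWI remodellers, which space nucleosomes and open the DNA around CTCF sites. Peaks give no mRNA level, so neither the identity of the sorted cells nor the knockdown of Ctcf or Smarca5 could be checked in these data. In a sorted population, binding in fewer cells and weaker binding per cell cannot be told apart.

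Sequence could be read where a site lay on an annotated promoter, taken from RefSeq (GRCm38.p6) as windows from 250 bases before to 50 bases after a start site. The table has a window for 17462 of 21887 protein-coding genes (79.8%). Of the 1534 sites, 29 held at least 1 whole window, 30 windows in all. The core of the CTCF motif, searched on both strands as the 12 letters CCNNNAGNNGGC, of which 7 are fixed, was in 7 of these 30 windows (23.3%, 11.8 to 40.9%). It was in 380 of 959 windows inside the other Thy1+ control peaks (39.6%, 36.6 to 42.8%) and in 2824 of all 32817 promoter windows (8.61%). The intervals of the first 2 shares overlap. The stretches with a match are shown because they are the letters under the peaks themselves. Each runs 5′ to 3′ along the gene, and capitals mark the core on either strand.
Gm33616, chr9:106418403-106418462, minus strand: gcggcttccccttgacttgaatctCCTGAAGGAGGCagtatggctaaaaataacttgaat
Gm36010, chr3:94310117-94310176, minus strand: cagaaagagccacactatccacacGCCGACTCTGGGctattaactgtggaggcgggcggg
Prpf31, chr7:3629870-3629929, plus strand: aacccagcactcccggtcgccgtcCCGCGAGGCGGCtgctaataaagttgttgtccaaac
Gm36570, chrX:59179175-59179234, plus strand: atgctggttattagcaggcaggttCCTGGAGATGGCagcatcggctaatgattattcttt
Ddx3x, chrX:13280872-13280931, plus strand: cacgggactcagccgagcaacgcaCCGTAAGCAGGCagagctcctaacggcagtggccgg
Ddx3x, chrX:13281013-13281071, plus strand: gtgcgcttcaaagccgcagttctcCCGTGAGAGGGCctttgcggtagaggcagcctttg
Sowahc, chr10:59221763-59221822, plus strand: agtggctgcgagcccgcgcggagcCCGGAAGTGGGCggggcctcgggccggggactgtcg
Cdc42ep1, chr15:78842397-78842437, plus strand: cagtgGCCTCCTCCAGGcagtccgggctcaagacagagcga
Cdc42ep1, chr15:78842515-78842574, plus strand: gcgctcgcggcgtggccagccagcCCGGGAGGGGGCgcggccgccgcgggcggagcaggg

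These promoters did not go together in the lists that the rule left aside. The site at Gm33616 had a peak in both day 10 lists with added Ctcf, in the SMARCA5 list and in the Smarca5 knockout ESC list. That at Gm36010, a predicted gene as well, had one with Ctcf shRNA in Thy1+ cells, in the SMARCA5 list and in the knockout list, and that at Gm36570 had the same without SMARCA5. The site at Gm36010 also overlapped the span of the protein-coding gene Them4. Prpf31 encodes a splicing factor, and its site was found with Ctcf shRNA in Thy1+ and in day 12 cells. Ddx3x encodes an RNA helicase on the X chromosome, and its site, with 2 cores in the window, was found only in the day 12 Ctcf shRNA list. Sowahc and Cdc42ep1, an effector of the GTPase Cdc42 with 2 cores as well, had a peak in none of the 10 other lists.

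A second set of promoters is shown because the results on genes below turn on them: Smad3 and Zswim8, whose windows hold the whole core inside the site, Tgfbr1, and Hgf and Il1rapl1, which hold the sites farthest from any peak of the other 15 lists among sites inside genes. Only the part of the promoter window inside the site is given. Here capitals mark the last 7 letters of the core, AGNNGGC, which overlap it by definition. These 7 letters were in 26 of the 30 windows inside the sites (86.7%), in 835 of 959 inside the other Thy1+ control peaks (87.1%) and in 59.8% of all promoter windows.
Smad3, chr9:63757945-63758028, minus strand: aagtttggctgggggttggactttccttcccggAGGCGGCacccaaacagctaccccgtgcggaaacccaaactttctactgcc
Zswim8, chr14:20707360-20707601, plus strand: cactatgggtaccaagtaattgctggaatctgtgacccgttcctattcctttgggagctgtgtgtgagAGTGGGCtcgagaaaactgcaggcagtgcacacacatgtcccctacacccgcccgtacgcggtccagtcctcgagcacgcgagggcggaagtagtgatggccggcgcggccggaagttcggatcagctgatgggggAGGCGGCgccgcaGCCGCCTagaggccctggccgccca
Tgfbr1, chr4:47352972-47353271, plus strand: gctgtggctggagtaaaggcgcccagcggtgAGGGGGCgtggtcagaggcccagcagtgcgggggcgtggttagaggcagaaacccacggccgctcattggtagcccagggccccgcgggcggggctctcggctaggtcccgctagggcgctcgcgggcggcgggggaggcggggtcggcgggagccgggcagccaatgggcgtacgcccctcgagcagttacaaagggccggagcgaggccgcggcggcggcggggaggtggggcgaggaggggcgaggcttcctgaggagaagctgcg
Hgf, chr5:16553651-16553950, plus strand: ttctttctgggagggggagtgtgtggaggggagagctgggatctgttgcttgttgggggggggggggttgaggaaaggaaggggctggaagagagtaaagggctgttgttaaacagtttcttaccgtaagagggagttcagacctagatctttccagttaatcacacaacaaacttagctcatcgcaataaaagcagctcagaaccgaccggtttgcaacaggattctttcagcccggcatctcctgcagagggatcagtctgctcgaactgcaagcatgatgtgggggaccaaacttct
Il1rapl1, chrX:88115899-88116179, minus strand: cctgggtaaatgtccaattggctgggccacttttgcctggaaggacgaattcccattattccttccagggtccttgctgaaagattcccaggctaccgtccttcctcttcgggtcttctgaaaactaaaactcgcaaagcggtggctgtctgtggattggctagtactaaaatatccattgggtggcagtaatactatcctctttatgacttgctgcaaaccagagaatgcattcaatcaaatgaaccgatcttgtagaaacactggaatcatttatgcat

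The stretches of Hgf and Il1rapl1 hold no match of the 7 letters. Their GC content was 51.3% and 44.8%, against 74.7% in the stretch of Tgfbr1, 63.2% in that of Zswim8 and 58.3% in that of Smad3. Over the 30 windows the median GC content was 67.5%, against 62.3% in windows inside the other Thy1+ control peaks and 52.7% in all promoter windows.

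Inside the rule, sites ran close to its edge and far from it. The gap from a site to the nearest peak of the other 5 control lists was 6.01 kb at the median, 3 bp at the least and 459.7 kb at the most. A gap of at most 200 bp was seen for 16 sites and of at most 1000 bp for 179. The closest lay at Atp8a1, a phospholipid flippase, with 3 bp, and the next ones at 1700019L22Rik with 19 bp and at Zfp469 with 24 bp. Just outside the rule, 12 of the other Thy1+ control peaks overlapped their best partner by under 50 bp, and the least overlap was 3 bp, while 47989 of them sat at exactly the position of a peak in another control list. The 8 lists of sorted cells share 1 set of positions: other Thy1+ control peaks found in another sorted list began at the same base in 99.9% of cases or more. In the day 0, day 10 and ESC lists they did so in 1.51 to 4.12%. Comparisons of Thy1+ only sites with day 0 only or ESC only sites therefore set lists with different positions side by side. By the same rule, 421 peaks stood alone in the day 0 control list (1.46%), 333 in the SSEA1- Thy1- list (0.654%), 507 in the SSEA1+ list (0.975%), 1220 in the day 12 Oct4-GFP+ list (2.30%) and 21575 in the wild-type ESC list (25.9%). The Thy1+ only sites were spread over all autosomes and the X chromosome, with 2.02% of the Thy1+ control peaks of chromosome 17 and 3.59% of those of chromosome 9 as the extremes.

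In the day 10 lists, more of the Thy1+ only sites were found with added Ctcf than with OSKM alone. The list with OSKM and Ctcf held 361 of 1534 sites (23.5%, 21.5 to 25.7%), against 164 with OSKM alone (10.7%, 9.24 to 12.3%). The sites listed with OSKM and Ctcf and not with OSKM alone numbered 199, and those with the reverse pattern 2. With the Smarca5 shRNA on top, 335 sites were listed (21.8%, 19.8 to 24.0%), against 361 without it. Of the 361 sites, 331 kept their peak with the Smarca5 shRNA (91.7%, 88.4 to 94.1%), and of the 199 sites seen only with added Ctcf, 176 did (88.4%, 83.3 to 92.2%). Each list is one deposited set of peaks made from 1 or 2 samples, so these shares carry counting error only. The lists also differ in length, with 43356 peaks for OSKM alone, 52252 for OSKM and Ctcf and 51635 with the Smarca5 shRNA. The part of list length in the day 10 shares was not tested.

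Over all Thy1+ control peaks the share found was 80.3% with the Smarca5 shRNA, 80.5% with OSKM and Ctcf, and 72.3% with OSKM alone. The Thy1+ only sites were far below this background. Against the other Thy1+ control peaks the difference was -60.3 points with the Smarca5 shRNA (95% Newcombe interval -62.3 to -58.1), -58.7 with OSKM and Ctcf (-60.8 to -56.5) and -63.5 with OSKM alone (-65.0 to -61.8). Sites were picked for being absent from control lists of related cells, so a low share elsewhere goes with the rule. Of the 1370 sites absent with OSKM alone, 199 were listed with added Ctcf (14.5%, 12.8 to 16.5%). Among the other Thy1+ control peaks it was 4168 of 13251 (31.5%), a difference of -16.9 points (-18.9 to -14.8).

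**Figure D1:**
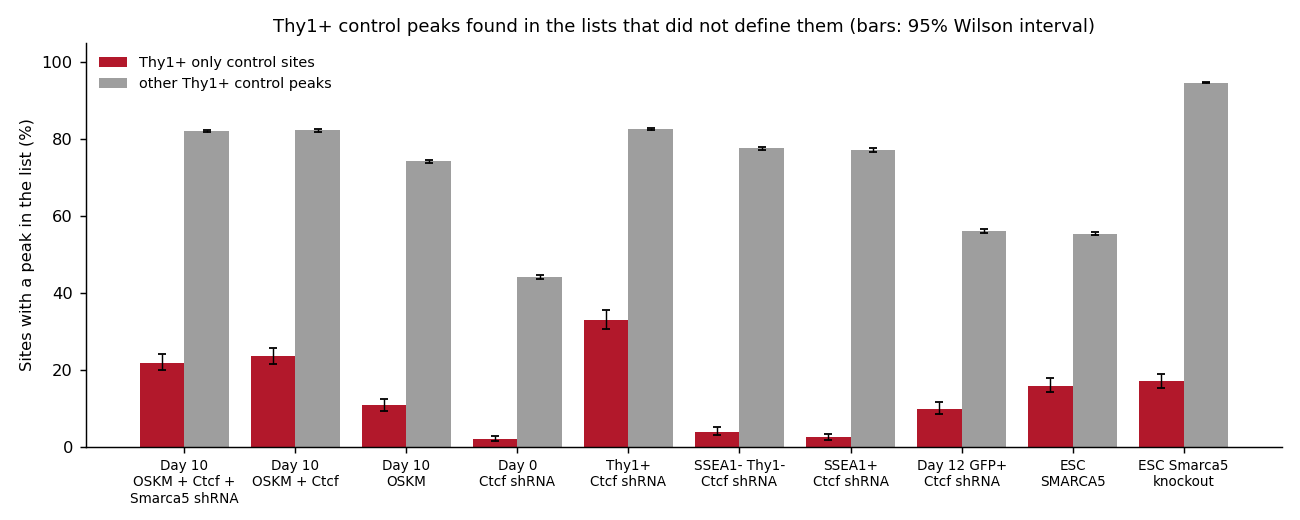
Share of sites (%) with a peak in each of the 10 lists that the rule did not use, for the 1534 Thy1+ only sites (red) and the 51266 other Thy1+ control peaks (grey), with 95% Wilson intervals. The highest red bar is the Thy1+ Ctcf shRNA list at 33.0% and the lowest the day 0 Ctcf shRNA list at 1.96%.

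Sites that stand alone in another control list are the closer comparison, because they were chosen by the same rule. With OSKM and Ctcf on day 10, the 23.5% of the Thy1+ only sites exceeded each of these classes. The values were 15.0% of the day 0 only sites, 4.20% of the SSEA1- Thy1- only sites, 6.51% of the SSEA1+ only sites, 4.02% of the day 12 only sites and 15.0% of the ESC only sites. With OSKM alone the values were 10.7% for Thy1+ only sites and 12.6%, 3.00%, 2.37%, 2.13% and 7.23% for these classes in the same order. The difference from the day 0 only sites was -1.90 points there (-5.70 to 1.38), whose interval holds 0. Counted over sites that had no peak with OSKM alone, 14.5% of the Thy1+ only sites had one with added Ctcf, against 3.53%, 1.24%, 4.44%, 2.18% and 8.42% of these classes in the same order. The differences were 11.0 points (8.00 to 13.4), 13.3 (10.7 to 15.4), 10.1 (7.27 to 12.5), 12.3 (10.3 to 14.4) and 6.10 points (4.29 to 8.10). All 5 intervals lie above 0 and cover counting error only.

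The share that kept its peak under the Smarca5 shRNA did not separate the classes as clearly. It was 91.7% of the Thy1+ only sites found with OSKM and Ctcf, against 96.8%, 92.9%, 97.0%, 89.8% and 94.8% of the day 0, SSEA1- Thy1-, SSEA1+, day 12 and ESC only sites found there. The interval of the difference lay below 0 for the ESC only sites (-3.11 points, -6.49 to -0.550) and held 0 for the other 4 classes. Against the other Thy1+ control peaks, of which 99.7% kept theirs, the difference was -8.04 points (-11.3 to -5.61).

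Of the lists with the shRNA against Ctcf, that of Thy1+ cells held the most Thy1+ only sites. This order goes with the rule, which took sites present in the Thy1+ control list and absent from the other control lists. The Thy1+ Ctcf shRNA list held 506 of the 1534 sites (33.0%, 30.7 to 35.4%), and 266 of these 506 were in no other of the 10 lists. With the Ctcf shRNA in other populations, the number was 30 on day 0 (1.96%), 60 for SSEA1- Thy1- (3.91%), 37 for SSEA1+ (2.41%) and 152 on day 12 (9.91%). Over all Thy1+ control peaks the shares in these lists were 42.9% for day 0, 81.1% for Thy1+, 75.4% for SSEA1- Thy1-, 74.9% for SSEA1+ and 54.7% for day 12. The day 12 Ctcf shRNA list had the fewest peaks of the sorted Ctcf shRNA lists, 35803 against 44283 to 45291, and the most Thy1+ only sites after that of Thy1+ cells. Its 9.91% of the Thy1+ only sites stood against 11.4% of the day 0 only sites, 22.8% of the SSEA1- Thy1- only sites and 27.0% of the SSEA1+ only sites. The differences were -1.49 points (-5.16 to 1.64), -12.9 (-17.9 to -8.44) and -17.1 (-21.4 to -13.1). In all, 257 sites (16.8%) had a peak in the Ctcf shRNA list of a population other than Thy1+, although each of them was absent from the control list of that population by the rule.

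Compared with the single sites of other populations and their own Ctcf shRNA list, 33.0% of the Thy1+ only sites were kept. The kept share was 15.4% for day 0, 13.5% for SSEA1- Thy1-, 15.4% for SSEA1+ and 36.6% for day 12. The differences were 17.5 points (13.1 to 21.5), 19.5 (14.8 to 23.5) and 17.6 (13.5 to 21.3), and for day 12 -3.57 points (-7.15 to 0.00332), whose interval holds 0. With a reciprocal overlap of 50%, the difference from day 0 was 8.95 points (5.17 to 12.6). Over all peaks of each control list, the kept share was 81.1% in Thy1+ cells, against 73.3%, 82.0%, 82.0% and 58.6% in the same order. The mixed labels of the day 3 Thy1+ samples bear on this comparison, and their part in it was not tested.

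**Figure D2:**
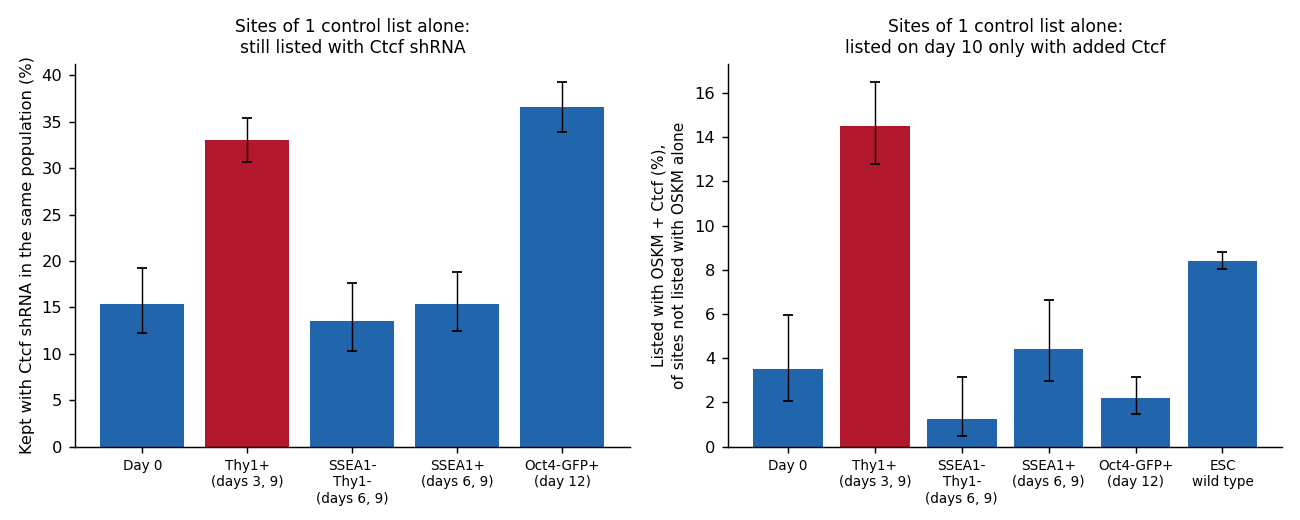
Sites found in 1 control list alone, by population, with 95% Wilson intervals. Left, the share (%) still listed with the Ctcf shRNA in the same cells, 33.0% for Thy1+ (red) and 13.5 to 36.6% for the other populations (blue); right, the share (%) of sites not listed with OSKM alone on day 10 that were listed with OSKM and Ctcf, 14.5% for Thy1+ and 1.24 to 8.42% for the others.

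In ESCs, where the wild-type list lacks these sites by the rule, 261 of the 1534 sites carried CTCF in the knockout of Smarca5 (17.0%, 15.2 to 19.0%) and 243 carried tagged SMARCA5 (15.8%, 14.1 to 17.8%). Over all Thy1+ control peaks these shares were 92.3% and 54.3%. The knockout list has 89567 peaks and the wild-type ESC list 83173, each from 1 sample. The part of this in the 17.0% was not tested. Both lists held the site in 150 cases, and 93 sites had SMARCA5 without CTCF in the knockout. The Smarca5 knockout list held 17.0% of the Thy1+ only sites, against 3.56 to 5.92% of the sites alone in the day 0 or a sorted control list. The SMARCA5 list held 15.8% of the Thy1+ only sites, against 3.33% of the day 0 only sites, 4.50% of the SSEA1- Thy1- only sites, 5.33% of the SSEA1+ only sites, 9.67% of the day 12 only sites and 34.8% of the ESC only sites. The differences were 10.5 to 12.5 points from the first 3 of these, 6.17 (3.67 to 8.62) from day 12, and -19.0 (-20.8 to -16.9) from ESCs.

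Sites with SMARCA5 in ESCs more often had CTCF on day 10 and in the Smarca5 knockout, and less often with the Ctcf shRNA in Thy1+ and day 12 cells. Of the 243 sites with SMARCA5, 120 were listed on day 10 with OSKM and Ctcf (49.4%), against 241 of the 1291 without it (18.7%), a difference of 30.7 points (24.1 to 37.3). In the Smarca5 knockout ESCs it was 61.7% against 8.60%, or 53.1 points (46.7 to 59.2). With the Ctcf shRNA in Thy1+ cells the order was the reverse: 18.9% of the sites with SMARCA5 kept their peak, against 35.6% of those without, a difference of -16.7 points (-21.9 to -10.7). In day 12 cells with the Ctcf shRNA it was 4.94% against 10.8% (-5.91 points, -8.67 to -2.07). On day 0 it was 1.65% against 2.01%, for SSEA1- Thy1- 1.65% against 4.34% and for SSEA1+ 0.823% against 2.71%, and the intervals of these 3 differences hold 0. On chromosomes with promoter windows, 130 of 235 sites with SMARCA5 lay within 500 bp of an annotated start site (55.3%). Without SMARCA5 it was 198 of 1254 (15.8%). The part of promoters in these differences was not tested, and the other Thy1+ control peaks were not split by SMARCA5.

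Counting all 10 lists, 522 sites (34.0%) were found in no other list of the series, 466 in 1, 228 in 2 and 318 in 3 or more, and the most was 7. Of the other Thy1+ control peaks, 0.542% were in none of the 10 lists and 24.2% in all.

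Thy1+ only sites lay at promoters more often than the other peaks of the same list. A site counted as near a promoter when its centre was within 500 bp of an annotated start site, which could be asked of 1489 sites, since the promoter table has no window on chromosome 18 and lacks part of the genes elsewhere. Of these, 328 were near (22.0%, 20.0 to 24.2%), against 3745 of 49730 other Thy1+ control peaks (7.53%), a difference of 14.5 points (12.5 to 16.7). The sites alone in other control lists were lower as well: 3.74% for day 0, 2.49% for SSEA1- Thy1-, 2.00% for SSEA1+, 9.74% for day 12 and 6.01% for ESCs, with differences of 12.3 to 20.0 points whose intervals all lie above 0. With the gene spans in place of the promoter table, 338 of all 1534 sites lay within 500 bp of either end of a protein-coding gene (22.0%), against 8.18% of the other Thy1+ control peaks, and this measure was added after the data were seen. Protein-coding genes held 66.0% of the sites in their span (63.6 to 68.3%), against 55.6% of the other Thy1+ control peaks. The distance to the nearest other Thy1+ control peak was much the same, 10.6 kb at the median against 9.79 kb.

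**Figure D3:**
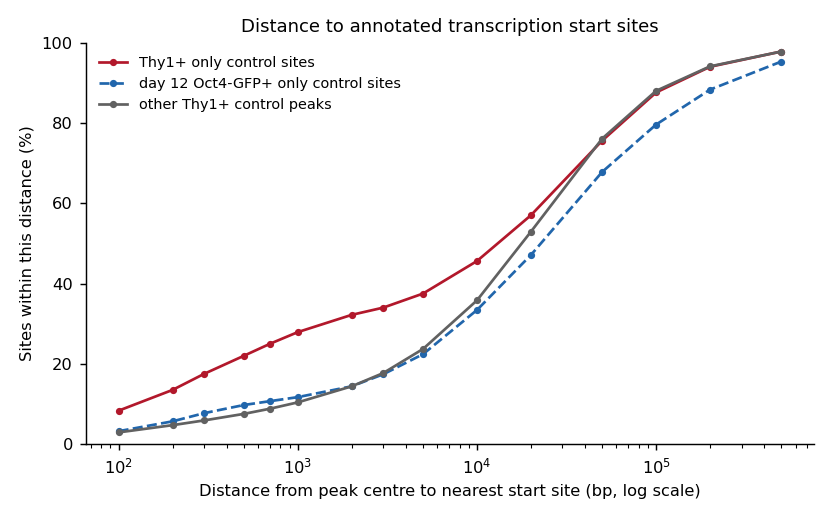
Cumulative share of sites (%) by distance from the peak centre to the nearest annotated start site (bp, log scale), for Thy1+ only sites (red), sites alone in the day 12 control list (blue, dashed) and other Thy1+ control peaks (grey). At 1000 bp the curves stand at 27.9%, 11.7% and 10.4%, and beyond 50 kb the red and grey curves meet.

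Sites at promoters and away from them differed in the other lists. Of the 328 sites near a start site, 39.6% had SMARCA5 in ESCs, against 9.04% of the 1161 farther away, a difference of 30.6 points (25.1 to 36.2). With OSKM and Ctcf on day 10 it was 35.1% against 20.2% (14.8 points, 9.30 to 20.6). The Ctcf shRNA list of Thy1+ cells went the other way, with 16.2% against 38.0% (-21.8 points, -26.4 to -16.7). The other Thy1+ control peaks had the same order in these 3 lists: near a start site against farther away, SMARCA5 was found at 85.4% against 53.0%, OSKM and Ctcf at 87.3% against 81.8%, and the Thy1+ Ctcf shRNA at 67.7% against 83.7%. Whether the sizes of these gaps differ between the classes was not tested. Sites in no other list were near a start site in 20.2% of cases, against 23.0% of the sites in at least 1 list, a difference of -2.77 points (-7.03 to 1.72).

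Among named genes, those of fibroblasts and of mesenchymal development were met most often. Of 30 genes of fibroblast identity, 8 had a Thy1+ only site inside or within 10 kb (26.7%), and of 30 mesenchymal regulators also 8, against 1421 of all 21887 protein-coding genes (6.49%). These genes are longer than the average, with a median span of 38.4 kb and 32.1 kb against 17.2 kb. The median number of Thy1+ control peaks was 3 for the fibroblast genes and 2 for the mesenchymal regulators, against 2 for all protein-coding genes. Counted over peaks, Thy1+ only sites were 10 of 92 Thy1+ control peaks at the fibroblast genes (10.9%) and 8 of 110 at the mesenchymal regulators (7.27%), against 3.04% at all protein-coding genes. On fewer peaks, 2 of 21 at keratinocyte genes (9.52%) and 2 of 25 at neural genes (8.00%) were as high. The sites alone in the other control lists have backgrounds of their own. Those alone in the day 12 list met 4.52% of all protein-coding genes, 1 of the 30 fibroblast genes, Dcn, and 0 mesenchymal regulators. The sites alone in the day 0, SSEA1- Thy1- and SSEA1+ lists met 1.56%, 1.19% and 1.99% of all genes, with 0 fibroblast genes and 0 or 1 mesenchymal regulator each. At these shares, counts of 0 or 1 of 30 are near the background. Those alone in the ESC list met 46.5% of all genes, 9 of the 30 fibroblast genes and 17 of the 30 mesenchymal regulators. No test was run on these lists.

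The fibroblast genes span the cell surface and the extracellular matrix. Thy1 itself, the surface protein used in the sort, had a site at chr9:44043243-44043642, across one end of the gene (chr9:44043384-44048579), and of the other 10 lists only that of SMARCA5 in ESCs had a peak there. Tnc, the matrix glycoprotein tenascin C, had 3 of its 5 Thy1+ control peaks among the Thy1+ only sites. They lay at chr4:63958654-63959053, 732 bp outside the gene, at chr4:64034640-64035039, and at chr4:64046493-64046892, with its centre 243 bp from a start site. Only the middle one was seen again, with the Ctcf shRNA in Thy1+ cells. At Pdgfrb, the receptor of platelet-derived growth factor on mesenchymal cells, the site chr18:61057282-61057681 was in no other list. Nor was that 3114 bp from Timp1, an inhibitor of matrix metalloproteases.

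Other fibroblast genes had sites that recurred. At Mmp2, a matrix metalloprotease, chr8:92827199-92827598 was listed in all 3 day 10 lists and with the Ctcf shRNA on day 0 and in Thy1+ cells. Cdh11, the cadherin of mesenchymal cells, had a site at chr8:102784874-102785273 with the same pattern, except that it lacked the OSKM list and had SMARCA5. Col5a2 (chr1:45491996-45492395) was found with the Ctcf shRNA in Thy1+ cells and in Smarca5 knockout ESCs, and Col5a1 (chr2:27906081-27906480) with the Ctcf shRNA in SSEA1- Thy1- cells. Both encode chains of type V collagen.

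Of the mesenchymal regulators, Tbx15, Runx1, Osr1, Tead3 and Tcf4 had sites that were in no other list. Tbx15 is a T-box factor of limb and skin mesenchyme, and its site chr3:99240773-99241172 lay 607 bp from a start site of the promoter table. Runx1 (chr16:92679707-92680106) encodes a Runt-domain factor and Osr1 (chr12:9574510-9574909) a zinc-finger factor of mesoderm. Nfia and Osr2 kept their sites with the Ctcf shRNA in Thy1+ cells and had no other peak. The site near Hand2, a bHLH factor of heart and limb, stood apart. At chr8:57333439-57333838, 8922 bp from the gene and 100 bp from a start site outside it, it was listed in all 3 day 10 lists, with the Ctcf shRNA in Thy1+ cells, with SMARCA5 and in Smarca5 knockout ESCs.

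TGF-beta signalling keeps fibroblasts mesenchymal and slows reprogramming. The list of TGF-beta and BMP signalling had 6 of 30 genes with a site (20.0%), from the ligand to the signal carriers inside the cell. These genes have a median span of 61.4 kb, against 17.2 kb for all protein-coding genes, and Thy1+ only sites were 7 of their 118 Thy1+ control peaks (5.93%), against 3.04%. Near the ligand Tgfb1, chr7:25711784-25712183 was found on day 10 with OSKM and Ctcf, both with and without the Smarca5 shRNA. The type I receptor Tgfbr1 had its site on the promoter printed above (chr4:47352968-47353367). It was listed on day 10 with OSKM and Ctcf and with OSKM alone, but the overlap with these peaks was at most 22 bp. Tgfbr3, a co-receptor, had a pair of sites seen nowhere else, and Acvr1, a type I receptor of BMPs, 1 site kept with the Ctcf shRNA in Thy1+ cells. Smad3, which carries the TGF-beta signal to the nucleus, had its site at chr9:63757629-63758028, across the start of the gene, where the core of the motif stands. It was listed on day 10 with OSKM and Ctcf, with and without the Smarca5 shRNA, with SMARCA5, and in Smarca5 knockout ESCs. Smad4, the partner of all receptor-driven SMADs, had a site with SMARCA5 and in the knockout ESCs (chr18:73703761-73704160).

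**Figure D4:**
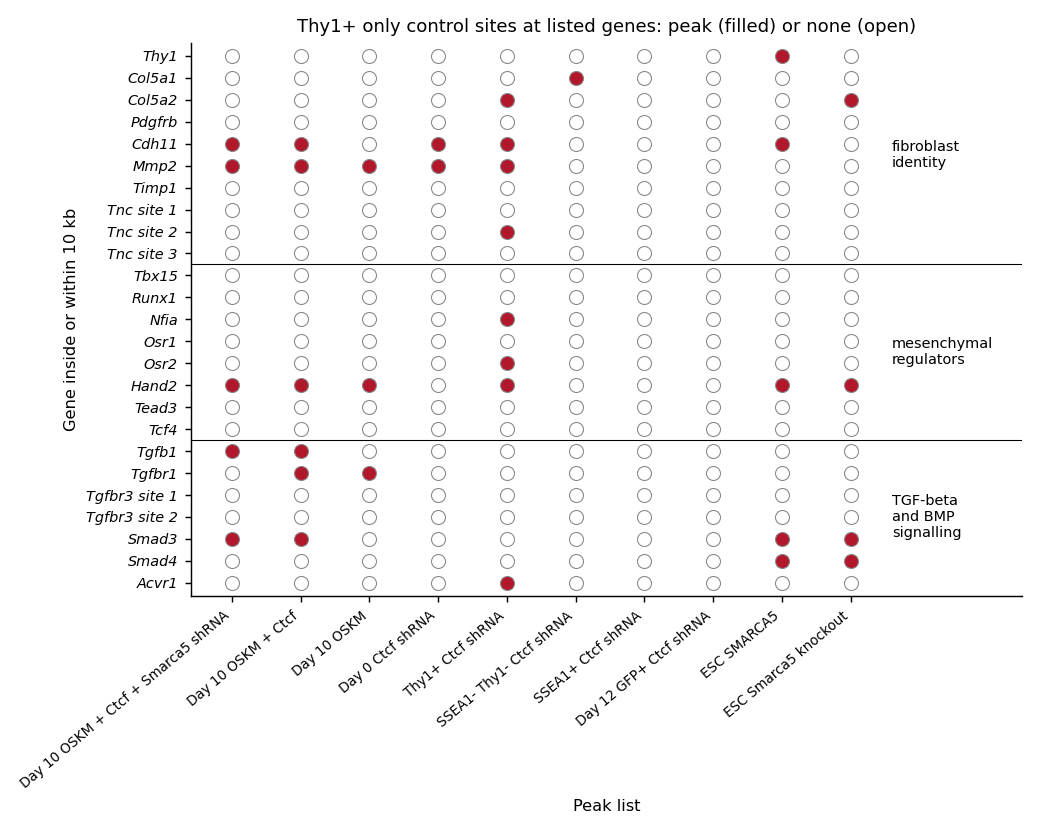
Thy1+ only sites at genes of 3 lists (rows, by gene) and their presence in the 10 lists that the rule did not use (columns): a filled circle is a peak that overlaps the site, an open circle none. Mmp2, Cdh11 and Hand2 have 5 or 6 filled circles, and 11 of the 25 rows have none.

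Contractile genes followed with 3 of 20. Myl9, a myosin light chain, and Myh9, a non-muscle myosin heavy chain, kept their sites with the Ctcf shRNA in Thy1+ cells, and that of Myh9 was also in all 3 day 10 lists, while the site near Flna, the actin crosslinker filamin A, was in none. Genes of pluripotency were met at the rate of all genes, 2 of 30 (6.67%). The site in Klf5 (chr14:99298935-99299334) was in all 3 day 10 lists and had SMARCA5, and that in Jarid2, a subunit of the Polycomb complex, was in none. The day 12 only sites met 3 of these 30 genes, Klf2, Esrrb and Jarid2. Of 39 Hox genes and 10 endothelial genes, 0 had a Thy1+ only site within 10 kb, a count near the background of 6.49% of all genes for lists of this size. Within 50 kb, 3 Hox genes had one.

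The remaining lists had 1 or 2 genes each. Cdkn1b, the cell cycle inhibitor p27, had a site in all 3 day 10 lists, and Il6, a cytokine of senescent cells, one found with the Ctcf shRNA in SSEA1+ cells. Egr2, an immediate early factor, and Dsc3, a desmosomal cadherin, had sites seen nowhere else, and Perp, a desmosomal protein, one seen with the Ctcf shRNA on day 12. The epithelial repressor Ovol2 had its site 178 bp from a start site. The site was listed on day 10 with OSKM and Ctcf but with neither the Smarca5 shRNA nor OSKM alone. In ESCs it had SMARCA5, and CTCF in the Smarca5 knockout. Gata2, a haematopoietic factor, had a site with 4 further lists. Of imprinted genes, Kcnq1 and Gnas had sites on day 10 with OSKM and Ctcf and in the Smarca5 knockout, and that of Gnas also with OSKM alone. Wapl, which releases cohesin from chromatin, was the single gene of 20 in the CTCF, cohesin and ISWI list. Its promoter site (chr14:34673596-34673995) was found with OSKM and Ctcf on day 10, with and without the Smarca5 shRNA, and with the Ctcf shRNA in Thy1+ cells.

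**Figure D5:**
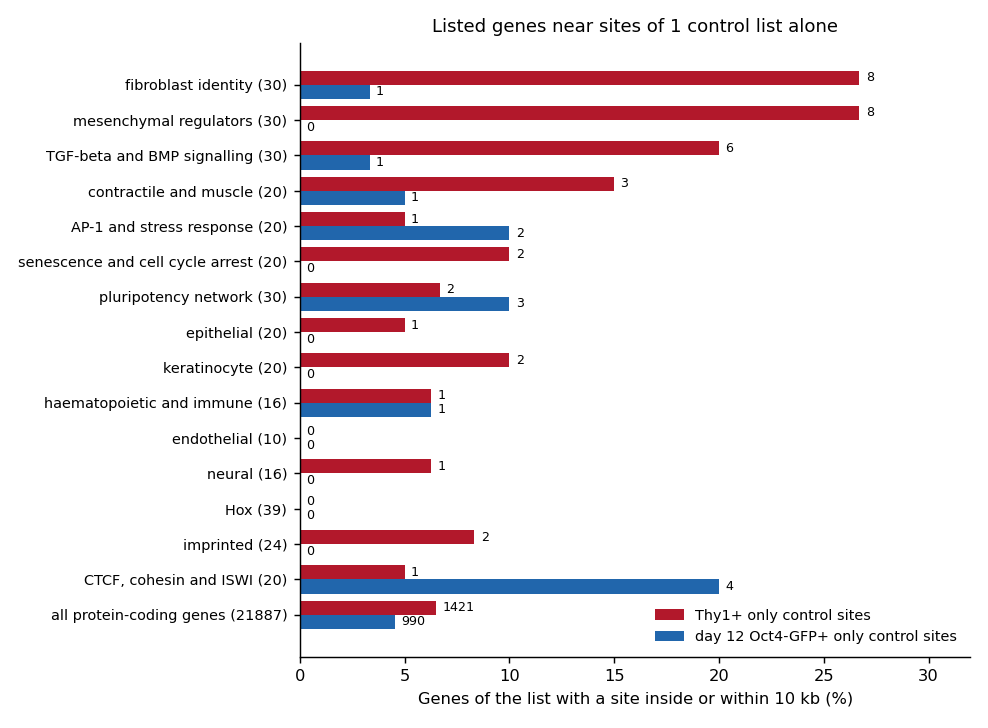
Share of the genes of each list (%) with a site inside or within 10 kb, for Thy1+ only sites (red) and sites alone in the day 12 control list (blue), with the number of genes at each bar and the size of each list in brackets. Fibroblast identity and mesenchymal regulators stand at 26.7% for Thy1+ only sites, and all protein-coding genes at 6.49%.

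Few genes had more than 1 Thy1+ only site: 94 protein-coding genes had 2 and 5 had 3. The 5 were Ankrd44, Tnc, Med13l, a subunit of the Mediator kinase module, Igf1r, the receptor of insulin-like growth factor 1, and Rora, a nuclear receptor with 30 Thy1+ control peaks in all. With 2, in genome order, came Map2, the neuronal microtubule protein, Dock10, Gli2, Disp1 and Fbxw2. They stand first by genome position among the 94 genes with 2 sites. Of their Thy1+ control peaks, these sites were 2 of 2 at Map2, 2 of 10 at Dock10 and 2 of 6 at Gli2. They were 2 of 3 at Disp1 and 2 of 4 at Fbxw2, against 3.04% of peaks at all protein-coding genes. These genes were picked for their number of sites. Gli2 is a transcription factor of Hedgehog signalling, and Disp1 releases the Hedgehog ligand. Both sites of Disp1 and 1 each of Map2, Dock10, Gli2 and Fbxw2 were in no other list. Another Thy1+ only site lay within 10 kb of 34 of the 1534 sites (2.22%). Any other Thy1+ control peak lay within 10 kb of 48.2% of them, and Thy1+ only sites are 2.91% of that list. Whether the sites cluster was not tested.

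Over the Thy1+ only sites on chromosomes with promoter windows, 22.0% lay within 500 bp of a start site. It was 20.2% of the sites in no other list and 23.0% of those in at least 1. Of the 12 sites found in the most other lists, most lay at start sites. These 12 were picked by their number of lists, and no test was run on them. The first 2, in 7 of 10 lists, were at Adamtsl4 (chr3:95687967-95688366), a secreted protein that binds fibrillin, and Zswim8 (chr14:20707360-20707759), the receptor of a ubiquitin ligase, with their centres 250 bp and 8 bp from a start site. Both had peaks in all 3 day 10 lists, with the Ctcf shRNA in Thy1+ cells, with SMARCA5 and in knockout ESCs. Zswim8 had one on day 0 with the Ctcf shRNA in addition, and Adamtsl4 one with the Ctcf shRNA in SSEA1- Thy1- cells. In 6 lists were the sites at Tmem62, Snx21, Tecpr1, Ccdc174, Hdhd5, Hand2, Ccdc12, Gjc1, a connexin, and Pgam1, a glycolytic enzyme, and in 5 that at Npas2, a circadian factor, taken by genome order among the 69 sites with 5 lists. Of these 12 sites, that at Gjc1 lay far from any start site of the promoter table (61590 bp), which lacks part of the genes. By the gene span (chr11:102799477-102819686), this site (chr11:102819434-102819833) lay across one end of Gjc1. The site at Ccdc12 was the only one of the 12 with neither SMARCA5 nor CTCF in knockout ESCs.

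At the other end, 6 sites inside genes were farthest from any peak of the other 15 lists. The site at the start of Il1rapl1, a synaptic receptor of the X chromosome (chrX:88115780-88116179), was 459.7 kb from the nearest, and that at the start of Hgf, the hepatocyte growth factor that mesenchymal cells secrete (chr5:16553580-16553979), 243.6 kb. Both are printed above. The others were in Map2 (105.7 kb), Gng11 (92.3 kb), a subunit of heterotrimeric G proteins, Lingo2 (81.4 kb), and Scn7a (53.3 kb), of the sodium channel family. For the 522 sites in no other list the median was 5.39 kb.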

How the data were processed

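Each of the 16 peak lists was deposited by the authors as a BED file of peaks 400 bp wide, whose score column, as deposited, is 0 for every peak, so peaks could not be ranked. The labels give 1 list per group of 1 to 3 ChIP samples, and how replicates were combined is not given in the sources used here. Bowtie2, SAMtools, Picard, MACS2, HOMER and bedtools are named, with the builds mm10 and GRCm38, per the submitters' processing notes. Sequencing depth is unknown.

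Overlap of at least 1 bp counted as shared. Scripts ran in Python 3.11.15 with NumPy 2.4.6, and matplotlib 3.10.9 drew the figures. The interval code was tested on simulated data. Shares carry 95% Wilson intervals and differences 95% Newcombe intervals, for counting error only, since no group has a second list. Gene spans and promoter windows came from RefSeq (GRCm38.p6), with no exon or intron annotation.

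The sites and the gene lists were chosen with earlier results of these data known. Genes named are those of 15 gene lists with a site inside or within 10 kb, the 10 protein-coding genes with the most sites, those nearest the 12 sites found in the most other lists, and those that hold the 6 most isolated sites. Genes outside this rule (the closest sites to the edge of the rule, and promoters with the motif) were chosen after their values were seen.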

Additional observations from a re-analysis of the deposited data

Results flagged for a closer look

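The share of sites kept in their own Ctcf shRNA list differed between populations. Thy1+ only sites were above the day 0 only sites by 17.5 points, above the SSEA1- Thy1- only sites by 19.5 points and above the SSEA1+ only sites by 17.6 points. Each interval of these differences leaves out 0. With a reciprocal overlap of 50%, the difference from the day 0 only sites fell to 8.95 points (5.17 to 12.6). The Thy1+ only sites at 33.0% and the day 12 only sites at 36.6% differed by -3.57 points, with an interval that holds 0, and with a reciprocal overlap of 50% the difference was -3.93 with an interval below 0. The labels of the day 3 Thy1+ samples disagree, and their part in this was not tested.

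The share of sites that were listed on day 10 with added Ctcf, among those absent with OSKM alone, also differed. Thy1+ only sites were above the day 0 only sites by 11.0 points, the SSEA1- Thy1- only sites by 13.3, the SSEA1+ only sites by 10.1, the day 12 only sites by 12.3 and the ESC only sites by 6.10 points. The intervals cover counting error of the peaks and not the spread between samples, which has no measure here.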

How the results depend on the processing

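Of 192 alternatives, 163 kept the result, 28 moved a value, 1 brought a difference past its threshold and 0 turned a direction. Only differences could turn: those from the other Thy1+ control peaks and those of the kept share under the Ctcf shRNA. Counts passed as kept within a set factor, as did protein-coding genes with a site, 1421 within 10 kb and 975 inside the gene. The 163 include 60 for the differences from the other Thy1+ control peaks, whose direction goes with the rule and is no sign of stability. Others among the 163 could not change either. All 1534 sites lie on assembled chromosomes, so keeping only these left the sites the same. In the sorted Ctcf shRNA lists the sites found sit at identical positions, so a stricter overlap could not change their shares there. Without the wild-type ESC list in the rule, 4798 sites met the rule. Their shares were 29.1% in the OSKM list, 49.0% with OSKM and Ctcf, 47.9% with the Smarca5 shRNA, 29.1% with the Ctcf shRNA in Thy1+ cells, 44.7% with SMARCA5 and 71.5% in the Smarca5 knockout. With a reciprocal overlap of 50%, the shares were 9.19% for OSKM, 19.8% for OSKM and Ctcf, 19.0% with the Smarca5 shRNA and 12.8% for SMARCA5. The day 0 only sites then kept 23.0% in their own Ctcf shRNA list, and the kept share of Thy1+ only minus day 12 only sites was -3.93 points, with an interval that left out 0. Counting a peak within 200 bp gave 18.1% for SMARCA5. Spans of all genes, not only protein-coding ones, held 72.9% of the sites, and the motif cut to AGNNGGC was in 86.7% of the windows. The cause of these changes was not tested. No paired analysis was possible because each group has 1 list that pools its samples, and for the same reason no replicate was left out. Depth is unknown, so what it limits could not be measured.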
